A study of Homo sapiens with 27 samples.

Results

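The comparison described here is that of USB1 mutant H1 cells in which a wild-type USB1 transgene was switched on with doxycycline (iUSB1 +Dox, 3 libraries) against the same engineered cells without doxycycline (iUSB1 -Dox, 3 libraries). H1 cells are an established line of human embryonic stem cells (hESCs). Its members were all mature miRNAs listed in the count tables of both groups, 1470 of the 2276 listed in any of the 9 tables of the study, measured in 6 of its 27 libraries. A fit of all 15 hESC libraries tested 998 of the 1470. A separate fit of the 6 iUSB1 libraries tested 4 more and called none of them. The other 468 were in neither fit. All of them were too low for the fit of the 6 libraries, with a highest count of 56 in any of these, and the fit of 15 took only the 1251 miRNAs listed in all 5 hESC tables.

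Both groups carried the same USB1 loss-of-function deletion, made with CRISPR/Cas9, and the same transgene, placed at the AAVS1 locus with a zinc finger nuclease. By their sample titles they differed in doxycycline alone, and the titles name no culture or library batch. The other hESC groups used here as a reference, with 3 libraries each, were wild type (WT) and the USB1 mutant without a transgene. The mutant with a short hairpin against the poly(A) polymerase PAPD5 entered the fit and is used as a reference for a single cluster below. The cells were undifferentiated. The labels give no dose or time of doxycycline and do not say whether the engineered line was 1 clone. WT cells with doxycycline were not analysed here, so an effect of the drug and an effect of USB1 cannot be told apart. Small RNA sequencing does not measure USB1 mRNA, so the induction itself was not analysed here.

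USB1 is a 3′ to 5′ exonuclease best known for trimming the 3′ end of U6, the spliceosomal small nuclear RNA, and it can also remove adenosines from RNA 3′ ends. A mature miRNA is cut from 1 arm (5p or 3p) of a hairpin and guides Argonaute to target mRNAs mainly through its seed, the bases near its 5′ end. Clusters known to be active in undifferentiated hESCs are the miR-302 cluster, which also holds miR-367, the miR-371 cluster, which also holds miR-372 and miR-373, and the primate-specific chromosome 19 miRNA cluster (C19MC). The let-7 family is held low in these cells and rises when they differentiate.

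The sequences of the miRNAs on which the results turn are shown first, 5′ to 3′ as RNA, from RefSeq (GRCh38.p14), with the seed (bases 2 to 8) in capitals. The study followed 5 miRNAs for their roles in blood cell formation, and these are given to show which of them share a seed.
miR-125a-5p: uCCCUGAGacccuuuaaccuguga
miR-125b-5p: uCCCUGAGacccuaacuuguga
miR-142-5p: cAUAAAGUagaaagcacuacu
miR-199a-3p: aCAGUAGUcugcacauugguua
miR-223-3p: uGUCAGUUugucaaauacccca

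The next set is shown because nearly all tested members of 2 neighbouring clusters of chromosome 19 had estimates below 0 with Dox, and their 3p arms partly share the seed AAGUGCU with miR-302.
miR-302a-3p: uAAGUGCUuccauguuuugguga
miR-372-3p: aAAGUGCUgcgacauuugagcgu
miR-373-3p: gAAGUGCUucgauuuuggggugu
miR-371a-3p: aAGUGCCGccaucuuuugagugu
miR-371b-3p: aAGUGCCCccacaguuugagugc
miR-520e-3p: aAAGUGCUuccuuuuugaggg
miR-526a-5p: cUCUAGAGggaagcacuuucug
miR-526b-5p: cUCUUGAGggaagcacuuucugu
miR-516b-5p: aUCUGGAGguaagaagcacuuu
miR-1323: uCAAAACUgaggggcauuuucu

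The last set holds 2 let-7 members with lower estimates and the only miRNA called by DESeq2.
let-7a-5p: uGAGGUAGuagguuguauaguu
let-7c-5p: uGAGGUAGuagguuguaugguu
miR-3662: gAAAAUGAugaguagugacugaug

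The +Dox libraries held 14054485 to 18323281 miRNA counts and the -Dox libraries 13951206 to 22728118. The 10 most abundant miRNAs took 80.8 to 83.3% of them. Spearman correlations between libraries were as high across the groups (0.939 to 0.956) as within them (0.938 to 0.957). Levels are given as CPM, counts per 1000000 after TMM normalization (a scaling that lets most miRNAs keep their level between libraries), and changes as log2 of +Dox over -Dox with their standard error (SE). WT library 1 stood apart from the other WT libraries, most of all in the miR-371 cluster and also in C19MC, and the calls and medians against WT are given with and without it. The RNA came from whole cultures, so fewer cells of a type and less RNA per cell cannot be told apart.

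Across the miRNome no difference passed the main test, edgeR on the 15 hESC libraries, against the spread between libraries. By edgeR 0 of 998 miRNAs (0%) passed an adjusted p of 0.05, with a smallest adjusted p of 0.355. At an unadjusted p under 0.05 there were 45 (4.51%), 32 lower (3.21%) and 13 higher (1.3%) with Dox. DESeq2 on the 15 libraries called 1 of the 990 miRNAs for which it gave an adjusted p (0.101%), miR-3662. The edgeR fit of the 6 iUSB1 libraries alone called 3 of 925 (0.324%), let-7a-5p, miR-3662 and miR-371a-3p, all lower with Dox. The 3 +Dox libraries lay above all 3 -Dox libraries for 65 miRNAs (6.51%) and below them for 71 (7.11%).

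The size of change that these libraries leave possible depended on the level of the miRNA. The median change over all tested miRNAs was 0.01, and the 95% interval lay within a 2-fold change in either direction for 524 (52.5%). Among the 427 miRNAs with a mean of at least 3 log2 CPM, it did so for 358 (83.8%). Below that level it did so for 166 of 571 (29.1%). For most low miRNAs the interval therefore did not leave out a 2-fold change. Whether such a change could have been detected was not tested.

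**Figure D1:**
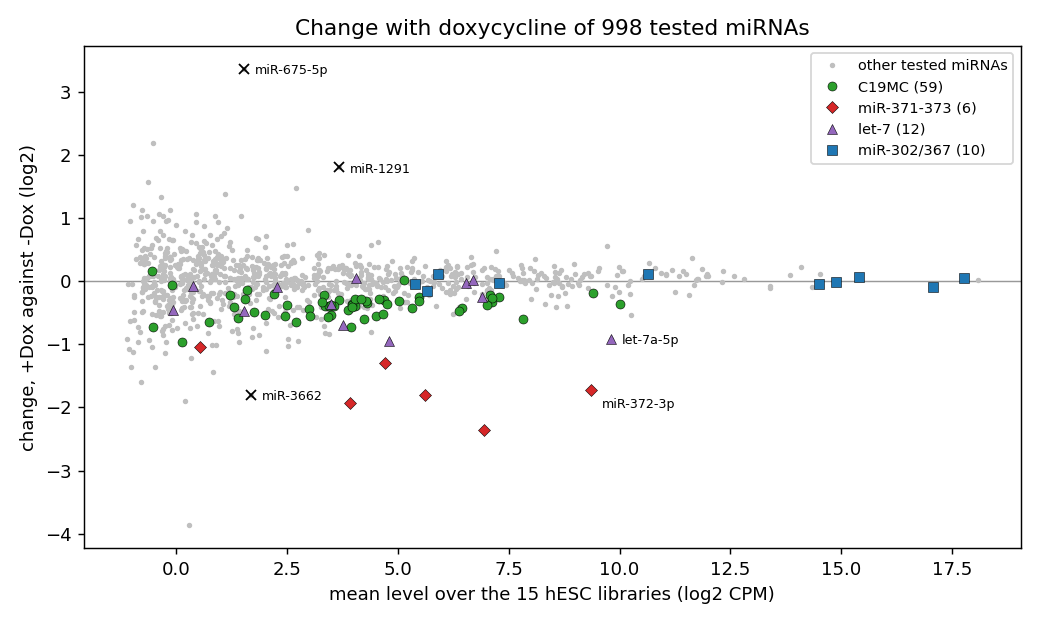
Change with doxycycline (y, log2 of +Dox over -Dox) against the mean level over the 15 hESC libraries (x, log2 CPM) for the 998 tested miRNAs, each a point. The 6 miR-371 cluster members and 57 of the 59 C19MC members lie below 0, the 10 miR-302 cluster members lie between -0.15 and 0.12, and the spread widens at low levels.

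The first question was whether the miRNAs the study followed for blood cell formation were higher in undifferentiated cells when USB1 was induced. miR-125a-5p, a relative of the miRNA lin-4 that acts in blood stem cells, lies on chromosome 19 (chr19:51693268-51693291, hg38, plus strand) in an intron of SPACA6. It stood at 222, 175 and 198 CPM in the -Dox libraries and at 196, 254 and 261 CPM in the +Dox libraries. Of the +Dox libraries 2 were above all -Dox libraries and 1 was inside their range. The change was 0.26 (SE 0.19), with a 95% interval from -0.14 to 0.66 that leaves out a 2-fold change.

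miR-125b-5p, which shares its seed and restrains differentiation of blood progenitors, is made from 2 loci, in an intron of MIR100HG (chr11:122099809-122099830, minus strand) and in an exon of MIR99AHG (chr21:16590253-16590274, plus strand). It stood at 18.3, 21.6 and 14.9 CPM without Dox and at 16.4, 18.2 and 21.7 CPM with Dox. The groups overlapped throughout, and the change was 0.04 (SE 0.22, 95% interval -0.42 to 0.50). In WT it stood at 44.7, 28.7 and 26.8 CPM, above every iUSB1 library.

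miR-199a-3p, best known from mesenchymal cells, lies antisense to introns of DNM2 (chr19:10817429-10817450) and DNM3 (chr1:172144554-172144575). RefSeq gives miR-199b-3p the same sequence, so reads of the pair cannot be assigned to 1 of them. It stood at 14.5, 16.5 and 11.9 CPM without Dox and at 13.7, 10.4 and 11.4 CPM with Dox. The change was -0.27 (SE 0.24, 95% interval -0.77 to 0.24), and the groups overlapped.

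miR-142-5p and miR-223-3p, 2 miRNAs of mature blood cells, were near the limit of detection. miR-142-5p lies in an exon of MIR142HG (chr17:58331283-58331303, minus strand) and had 13, 15 and 16 counts without Dox and 8, 7 and 15 with Dox. Its change of -0.32 (SE 0.65) has an interval from -1.70 to 1.05, which covers a 2-fold change in both directions. miR-223-3p lies in an exon of MIR223HG (chrX:66018937-66018958, plus strand), had 4, 8 and 6 counts without and 6, 4 and 5 with Dox, and was too low for the fit. The 5 opposite strands of these hairpins had changes from -0.66 (miR-142-3p, SE 0.76) to 0.72 (miR-199a-5p, SE 0.60), and the groups overlapped for each of the 5.

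**Figure D2:**
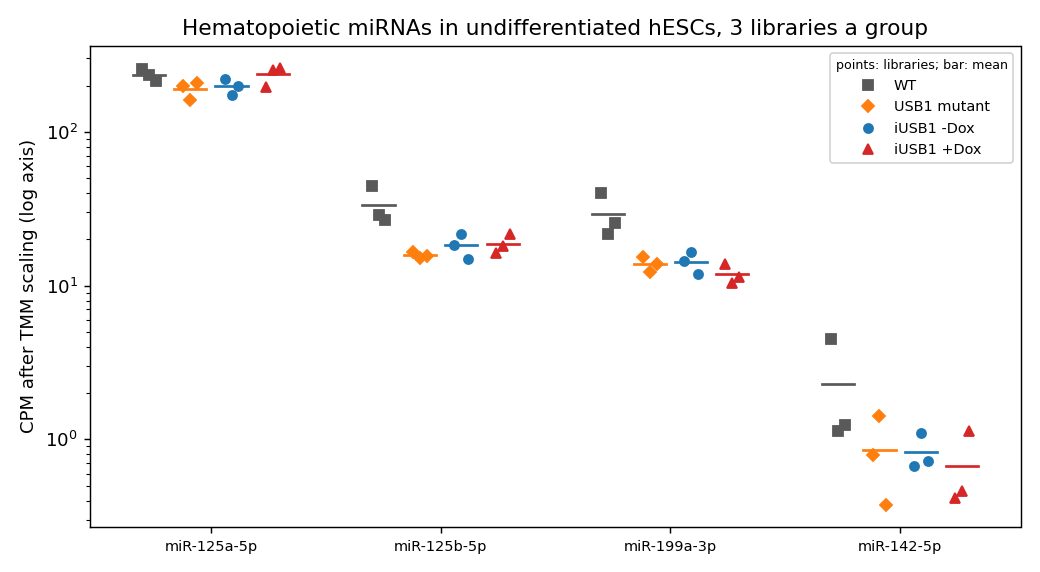
Level (y, CPM on a log axis) of 4 hematopoietic miRNAs in the 3 libraries of WT, USB1 mutant, iUSB1 -Dox and iUSB1 +Dox hESCs (points), with the mean (bar). For miR-125b-5p and miR-199a-3p the WT libraries lie above every iUSB1 library, and for each of the 4 miRNAs the +Dox and -Dox points overlap.

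The pluripotency clusters did not move alike. The miR-302 cluster (chr4:112647874-112648557, minus strand, with miR-302a-3p in an exon of MIR302CHG) carries seeds that promote the embryonic cell cycle. It made up nearly the same share of the libraries in both groups, with a summed level of 448834 ± 25429 CPM with Dox and 448825 ± 27005 CPM without (SD, n = 3). Its 10 members had a median change of -0.02, and the interval lay within a 2-fold change in either direction for 9 of them. The leading member, miR-302a-5p, stood at 203621 ± 9978 CPM in the -Dox and 211277 ± 7067 CPM in the +Dox libraries (SD, n = 3), a change of 0.05 (SE 0.14). miR-302b-3p stood at -0.09 (SE 0.16). miR-148a-3p, the most abundant miRNA of the 6 libraries, stood at 276473 ± 56070 and 279304 ± 20902 CPM (SD, n = 3), a change of 0.01 (SE 0.29).

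The miR-371 cluster (chr19:53787675-53788773) was lower with Dox in every estimate. miR-372-3p and miR-373-3p share the seed of miR-302, and the cluster is known to be switched off on differentiation. All 6 tested members were below 0, with a median of -1.76, and for 5 of them every +Dox library lay below every -Dox library, against 7.11% of all tested miRNAs. The summed level was 211, 270 and 137 CPM without Dox and 61.7, 39.6 and 79.8 CPM with Dox. In the mutant without a transgene it was 208, 173 and 159 CPM, so the -Dox libraries lay around the mutant and the +Dox libraries below both. With the hairpin against PAPD5 the mutant held 510 to 773 CPM.

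miR-372-3p (chr19:53787931-53787953, plus strand), the most abundant member, stood at 177, 217 and 114 CPM without Dox and at 50.1, 33.2 and 70.2 CPM with Dox. The groups were well apart, and the change was -1.73 (SE 0.87, 95% interval -3.65 to 0.20, edgeR adjusted p = 0.994). miR-371a-3p stood at 11, 14.7 and 9.34 CPM in the -Dox and 3.55, 2.29 and 4.13 CPM in the +Dox libraries, a change of -1.80 (SE 0.99). Estimates of -2.36 (SE 1.23), -1.94 (SE 1.52) and -1.30 (SE 1.04) were found for miR-371b-3p, miR-371a-5p and miR-373-3p in this order.

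WT library 1, which enters the shared estimate of spread, held 8714 CPM of the cluster where the other WT libraries held 484 each. When it was left out of the fit, the changes of miR-372-3p (-1.73, edgeR adjusted p = 0.00641), miR-371a-3p (-1.81, adjusted p = 0.00205) and miR-371b-3p (-2.37, adjusted p = 0.0124) passed the threshold, with the same 6 iUSB1 libraries. In the edgeR fit of these 6 alone, miR-371a-3p passed (adjusted p = 0.0120) and miR-372-3p did not (adjusted p = 0.0664). Over the alternatives run, the estimate lay between -2.05 and -1.51 for miR-372-3p and between -2.72 and -1.72 for miR-371b-3p, with adjusted p from 3.84e-07 (DESeq2 on the 6 iUSB1 libraries) to 0.999 (edgeR) for both. DESeq2 on the 15 libraries gave no adjusted p for this pair.

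C19MC (chr19:53666679-53762430), a long cluster of related hairpins active in placenta and in embryonic stem cells, lies just before the miR-371 cluster on the chromosome. Most of its estimates with Dox were lower by small amounts. Of its 65 listed members 59 were tested and 57 had estimates below 0, the exceptions being miR-515-3p and miR-516a-5p. The +Dox libraries lay below all -Dox libraries for 28 members (47.5%) and above them for 0, where the share over all tested miRNAs was 7.11% in the lower direction. The median was -0.38, with a range from -0.96 to 0.16. At an unadjusted edgeR p under 0.05, 10 members were lower, against 32 of all 998 tested miRNAs (3.21%). By edgeR and by DESeq2 0 members were called. Without C19MC the +Dox libraries lay below all -Dox libraries for 43 of 939 miRNAs (4.58%).

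The summed C19MC level was 3350, 3738 and 3481 CPM without Dox and 2926, 2643 and 2818 CPM with Dox. The mutant libraries held 3501 to 3755 CPM and those of WT 3635 to 4440 CPM, so the 3 +Dox libraries were the lowest of these 12. The difference did not rest on the leading members. Without the 5 most abundant it was 1224 ± 57.4 CPM in the -Dox and 963 ± 95.8 CPM in the +Dox libraries (SD, n = 3). The median change against WT was -0.14 without Dox, -0.53 with Dox and 0.06 in the mutant. Without WT library 1, which held 4440 CPM of C19MC, these medians were 0.0015, -0.37 and 0.21.

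**Figure D3:**
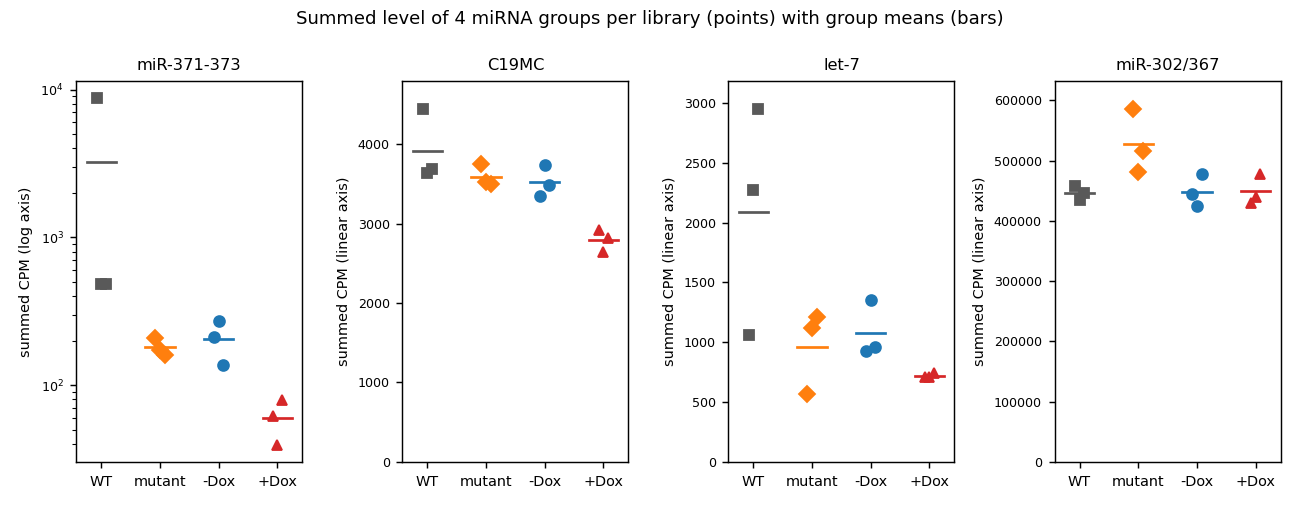
Summed level (y, CPM) of the tested members of the miR-371 cluster (log axis), C19MC, let-7 and the miR-302 cluster (linear axes from 0) in the 3 libraries (points) of WT, USB1 mutant, iUSB1 -Dox and iUSB1 +Dox cells, with the mean (bar). The +Dox points lie below all -Dox points for the first 3 groups of miRNAs and among them for the miR-302 cluster.

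Among single C19MC members, miR-520e-3p (chr19:53675764-53675784), with the AAGUGCU seed, stood at 24.2, 23.0 and 25.7 CPM without Dox and at 15.9, 15.9 and 17.7 CPM with Dox. The change was -0.56 (SE 0.21, unadjusted p = 0.0163, edgeR adjusted p = 0.994). miR-526b-5p (chr19:53694406-53694428) stood at 144, 131 and 145 CPM in the -Dox and 111, 101 and 112 CPM in the +Dox libraries, a change of -0.38 (SE 0.15). Both were among the miRNAs picked for a small p and groups that did not overlap, so the gap between their groups came with the choice.

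Of the most abundant members, miR-516b-5p, made from 2 loci (chr19:53725457-53725478 and chr19:53736860-53736881), stood at 924, 1157 and 1039 CPM in the -Dox and at 737, 781 and 904 CPM in the +Dox libraries, a change of -0.37 (SE 0.17). miR-1323 (chr19:53671978-53671999) stood at 269, 312 and 243 CPM in the -Dox and 189, 195 and 161 CPM in the +Dox libraries, a change of -0.60 (SE 0.28). For miR-512-3p the groups overlapped, and the change was -0.19 (SE 0.16, 95% interval -0.52 to 0.15). The change of miR-518e-3p was -0.59 (SE 0.27).

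Several members cannot be told apart by sequence. Of the 57 with a RefSeq sequence, 48 sequences were distinct. miR-526a-5p (-0.56, SE 0.20) and miR-518d-5p (-0.53, SE 0.21) share theirs with each other and with miR-520c-5p, so their 2 estimates are not separate observations. Of the 10 tested miRNAs with the seed UCUAGAG, all 5p arms of C19MC, 3 are this trio and 6 share another sequence (miR-518e-5p, miR-519a-5p, miR-519b-5p, miR-519c-5p, miR-522-5p and miR-523-5p). Their estimates were below 0 in 10 cases, with a median of -0.39, but they are not 10 separate observations. The 12 with the seed AAGUGCU, which come from C19MC, the miR-371 cluster and the miR-302 cluster apart from miR-302e, had a median of -0.25, and 10 were below 0. By arm, the median was -0.34 for 27 C19MC 3p arms and -0.39 for 28 5p arms.

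Other clusters with at least 6 tested miRNAs had medians near 0, with -0.03 for the 14q32 cluster, -0.00 for miR-106a-363, 0.01 for miR-23b, 0.02 for miR-188/500 and 0.03 for miR-17-92.

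The let-7 family, whose members oppose the pluripotent state, had a lower summed level with Dox mainly through let-7a-5p. This miRNA is made from 3 loci, 2 of them in exons of the host transcripts MIRLET7A1HG (chr9:94175962-94175983) and MIRLET7BHG (chr22:46112752-46112773) and 1 in an intron of MIR100HG (chr11:122146568-122146589). It stood at 606, 809 and 606 CPM without Dox and at 375, 344 and 354 CPM with Dox. The +Dox libraries were close to each other and clear of all -Dox libraries. The change was -0.91 (SE 0.34, 95% interval -1.64 to -0.19, unadjusted p = 0.0169, edgeR adjusted p = 0.994). In the edgeR fit of the 6 iUSB1 libraries the change was -0.92 (SE 0.16) and passed the threshold (adjusted p = 0.0162). In the mutant without a transgene let-7a-5p stood at 342, 708 and 816 CPM, a range that holds the 3 +Dox and the 3 -Dox values.

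Of the 12 tested let-7 members 10 were below 0, with a median of -0.31, and for 2 of them the +Dox libraries lay below all -Dox libraries, against 7.11% of all tested miRNAs. Without -Dox library 2 the median turned to 0.11. let-7c-5p, a close relative in sequence, stood at 16.4, 45.6 and 15 CPM in the -Dox and 17.0, 13.0 and 9.92 CPM in the +Dox libraries, where 1 -Dox library carried much of the change of -0.94 (SE 0.45). let-7g-5p stood at 92.9 ± 24.3 and 90.9 ± 10 CPM (SD, n = 3), a change of -0.03 (SE 0.31). The summed level of the family was 1078 ± 236 CPM in the -Dox and 721 ± 17.4 CPM in the +Dox libraries (SD, n = 3).

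miR-3662, in an intron of HBS1L (chr6:134979355-134979378, minus strand), had the smallest p of all tested miRNAs. It had 67, 60 and 102 counts without Dox and 14, 20 and 21 with Dox, or 3.46, 4.37 and 4.60 CPM against 0.732, 1.31 and 1.58 CPM. Every +Dox library was clear of every -Dox library. The change was -1.80 (SE 0.40, 95% interval -2.65 to -0.95), with an adjusted p of 0.355 by edgeR, 0.0162 by edgeR on the 6 libraries and 0.0157 by DESeq2. WT stood at 3.42 to 4.23 CPM, and the mutant libraries spread from 1.05 to 4.50 CPM, reaching into both iUSB1 groups. Over the alternatives run, the estimate lay between -2.05 and -1.54, with adjusted p from 0.000417 to 0.998.

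The other miRNAs with the smallest p among those lower with Dox and not overlapping were miR-34b-3p, a p53 target of the miR-34 family, at -0.58 (SE 0.22), miR-7974 at -0.39 (SE 0.15) and miR-6724-5p at -0.56 (SE 0.22). miR-34b-3p stood at 9.85 ± 0.329 CPM in the -Dox and 6.59 ± 0.904 CPM in the +Dox libraries (SD, n = 3). The 9 tested p53-induced miRNAs had a median of -0.16, with 3 above and 6 below 0.

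In the other direction, of the leading miRNAs with groups that did not overlap, all but miR-1291 had changes under 0.5, and edgeR called 0 of them. miR-27b-3p stood at 1493, 1304 and 1461 CPM without Dox and at 1947, 1669 and 1606 CPM with Dox, a change of 0.29 (SE 0.15). miR-26a-5p, among the 10 most abundant miRNAs, stood at 15246 ± 700 and 17807 ± 1418 CPM (SD, n = 3), a change of 0.22 (SE 0.14). miR-148b-3p and miR-152-3p had changes of 0.37 (SE 0.24) and 0.26 (SE 0.15), while miR-148a-3p, with the same seed, stood at 0.01 (SE 0.29).

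Both arms of miR-708 had higher estimates with Dox. miR-708-5p stood at 158, 96.8 and 165 CPM in the -Dox and 188, 202 and 191 CPM in the +Dox libraries, a change of 0.47 (SE 0.29), and miR-708-3p had a change of 0.39 (SE 0.26). Both arms were picked among miRNAs with groups that did not overlap, so their lack of overlap came with the choice. Changes were 0.31 (SE 0.18) for miR-618, 0.26 (SE 0.15) for miR-339-3p and 0.22 (SE 0.15) for miR-340-5p.

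miR-1291 stood at 5.58, 5.47 and 8.30 CPM in the -Dox and 15.3, 17.4 and 35.2 CPM in the +Dox libraries, a change of 1.80 (SE 1.02, edgeR adjusted p = 0.994). DESeq2 on the 6 iUSB1 libraries called it (adjusted p = 1.58e-06), and over all alternatives the adjusted p ran from that value to 0.999. Its groups did not overlap, which was a condition of its choice, but the mutant libraries ranged from 1.99 to 39.5 CPM, wider than both. The next 4 miRNAs were chosen after their values were seen, as they had large estimates that rested on few counts or few libraries. miR-675-5p, made from the imprinted transcript H19, had 7, 5 and 10 counts without and 99, 102 and 6 with Dox. Its estimate of 3.36 (SE 0.92, edgeR adjusted p = 0.599) came from 2 of the 3 +Dox libraries, and it passed without WT library 1 (adjusted p = 0.0406). miR-202-5p had 172 counts in 1 -Dox library and 2 to 5 in each of the other 5. Its estimate was -3.87 (SE 1.59) and turned to 1.45 without that library. miR-122-5p, the abundant miRNA of liver, stood at 2.69, 7.14 and 3.61 CPM in the -Dox and 4.13, 9.97 and 23.1 CPM in the +Dox libraries, with overlapping groups and an estimate of 1.48 (SE 0.62). miR-5011-5p had 1 to 5 counts without and 9 to 16 with Dox.

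**Figure D4:**
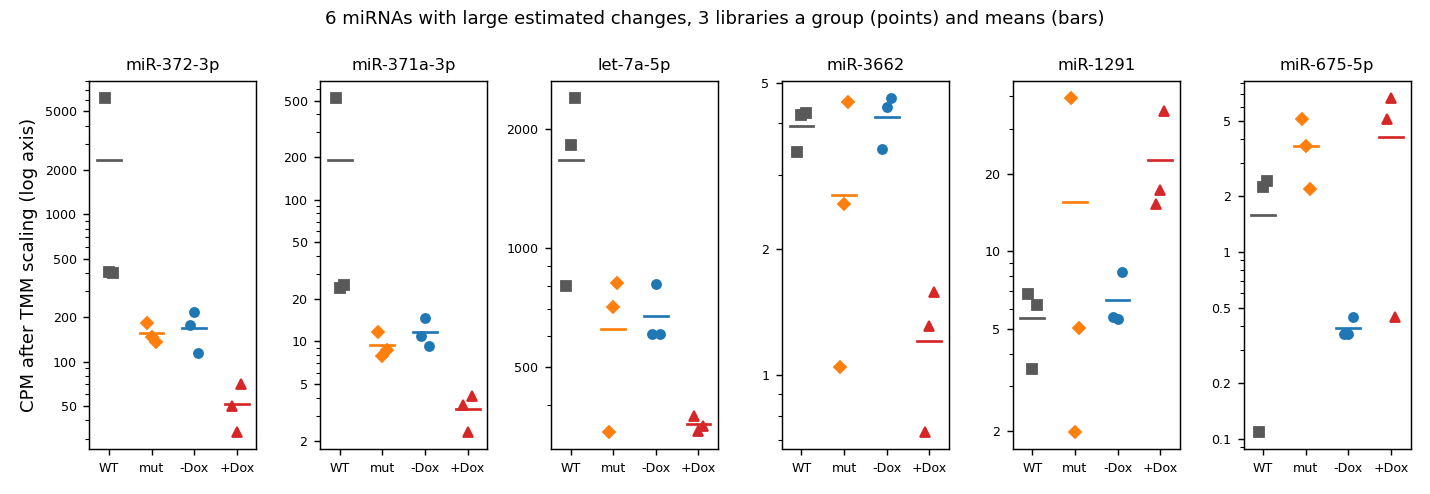
Level (y, CPM on log axes) of miR-372-3p, miR-371a-3p, let-7a-5p, miR-3662, miR-1291 and miR-675-5p in the 3 libraries (points) of WT, USB1 mutant (mut), iUSB1 -Dox and iUSB1 +Dox cells, with the mean (bar). The -Dox and +Dox points are apart for the first 5 miRNAs, while 1 +Dox library of miR-675-5p lies with the -Dox libraries. The mutant points of miR-3662 reach into both groups, and those of miR-1291 span both.

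In the other groups of miRNAs edgeR called 0 members. The miR-17/92 family and its paralogs, which drive proliferation, had a median of 0.07 over 26 members, with 24 intervals within a 2-fold change in either direction. The miR-30 family stood at 0.01 over 11 members, with 11 intervals inside that range. The miR-15/16 family stood at -0.05 over 12, the miR-100 and miR-125 families with their miR-10 and miR-99 relatives at 0.07 over 11, and the imprinted 14q32 miRNAs at -0.04 over 15 of 31 listed. The epithelial miR-200 family had estimates below 0 for 9 of 9 members, with a median of -0.22, and 1 of them, miR-200c-3p, lay lower without overlap, against 7.11% of all tested miRNAs (3183 ± 50.9 CPM in the -Dox and 2729 ± 268 CPM in the +Dox libraries, SD, n = 3). Without -Dox library 2 this median was -0.084.

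Lists of miRNAs that mark other cell types were checked for a change in the makeup of the cultures. Fibroblast miRNAs had a median of 0.08 over 12 and blood lineage miRNAs one of -0.00 over 16. The fibroblast list holds miR-21-5p, one of the most abundant miRNAs of the 6 libraries, so its summed level does not track feeder cells alone. Germ layer, neural and muscle miRNAs had a median of -0.10 over 12, with 5 above and 7 below 0. Their summed level was 1869 CPM as the mean without and 1753 CPM with Dox, and that of fibroblast miRNAs 22739 and 24559 CPM. Of the clusters active in undifferentiated hESCs, the miR-302 cluster held 423984 to 477640 CPM in the 6 libraries. The others were lower in estimate with Dox. All 6 tested members of the miR-371 cluster (median -1.76) and 57 of 59 of C19MC (median -0.38) were below 0.

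Because USB1 acts on 3′ ends, changes were set out by the last base of the mature sequence, known for 889 of the 998. The median was -0.03 for 166 miRNAs ending in A, 0.04 for 173 ending in C, 0.02 for 267 ending in G and -0.02 for 283 ending in U. For 233 hairpins with both arms tested, the more abundant arm had a median of -0.02 and the less abundant arm one of -0.01. The deposited tables give 1 count per miRNA and library, so 3′ tails were not analysed here.

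The last question concerned the miRNAs that differ between USB1 mutant and WT hESCs, called in libraries that the Dox comparison does not use. It was whether their Dox estimate had the sign opposite to that of the mutant over WT, here called pointing toward WT. The distance of the -Dox libraries from WT did not enter, so this does not show which group lay nearer WT. Between mutant and WT 74 of the 998 miRNAs (7.41%) were called, 45 lower and 29 higher in the mutant. The Dox estimate pointed toward WT for 23 of the 74 (31.1%), where it opposed the mutant estimate for 454 of all 998 (45.5%). Of the 45 lower in the mutant, 11 (24.4%) had a higher estimate with Dox and 34 a lower one. Of the 29 higher in the mutant, 12 (41.4%) had a lower estimate with Dox. Without the 6 miR-371 cluster members the share was 23 of 68 (33.8%). With WT library 1 left out, 54 of 1028 miRNAs (5.25%) were called between mutant and WT, 41 of them also called with it, and 21 (38.9%) pointed toward WT, against 487 of the 1028 (47.4%). The +Dox and -Dox libraries did not overlap for 13 of the 74, with 12 pointing away from WT and 1 toward it, miR-1911-3p (0.85, SE 0.45), named after its values were seen. Over all tested miRNAs they did not overlap for 136 (13.6%), 76 away and 60 toward, and without the miR-371 cluster 7 of the called miRNAs pointed away and 1 toward. Across the 998 miRNAs, which are not independent and share 1 scaling and 1 estimate of spread, the Pearson correlation of the Dox and mutant changes was 0.30.

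Single members are set beside WT here, with all 3 WT libraries in the WT levels. The mutant over WT changes with and without WT library 1 were -2.03 and -1.45 for miR-653-5p and -1.85 and -1.67 for miR-1-3p. They were -1.65 and -0.95 for miR-146a-5p, -1.48 and -1.45 for miR-200b-3p, and -0.93 and -1.21 for miR-9-5p. miR-653-5p stood at 26.2 ± 3.84 CPM with and 34.6 ± 10 CPM without Dox (SD, n = 3), against 91.6 to 241 CPM in WT. Its change with Dox was -0.40 (SE 0.33). miR-1-3p, a muscle miRNA, stood at 199.2 ± 33.9 and 265 ± 74.8 CPM (SD, n = 3), a change of -0.41 (SE 0.33), against 634 to 969 CPM in WT. miR-146a-5p, which dampens innate immune signalling, had a change of -0.41 (SE 0.35), and its highest +Dox library (41.1 CPM) was below the lowest WT library (115 CPM). miR-200b-3p had an estimate of -0.18 (SE 0.19, 95% interval -0.59 to 0.23), and its WT mean was 4046 CPM against 2059 ± 186 CPM with Dox (SD, n = 3). For neural miR-9-5p the estimate was -0.18 (SE 0.24).

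Among miRNAs higher in the mutant, miR-135b-5p, the leading one of those at 3 log2 CPM or more, stood at 331, 230 and 428 CPM in the -Dox and at 278, 296 and 380 CPM in the +Dox libraries. The change was -0.05 (SE 0.36), and every WT library was lower, at 153 to 184 CPM. miR-625-3p had an estimate of 0.36 (SE 0.23) with Dox, of the same sign as its change in the mutant over WT. Against WT itself edgeR called 43 of 998 miRNAs without Dox (4.31%) and 82 with Dox (8.22%). Without WT library 1 it called 32 (3.11%) and 57 (5.54%) of 1028. The difference between these counts was not tested.

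**Figure D5:**
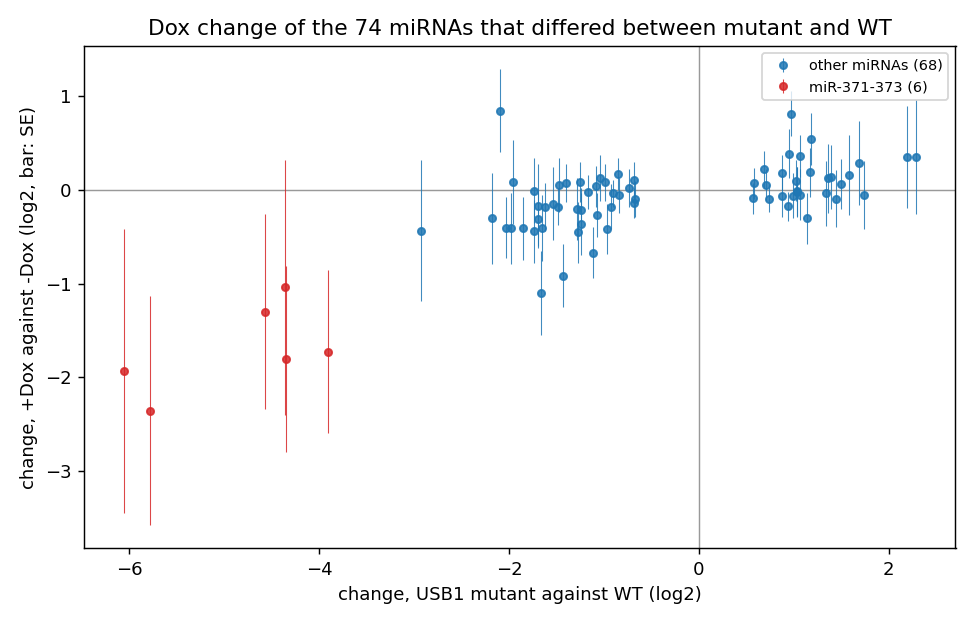
Change with doxycycline (y, log2 of +Dox over -Dox, bar SE) against the change in USB1 mutant over WT cells (x, log2) for the 74 miRNAs called between mutant and WT. Points in the upper left and lower right quadrants, 23 in all, point toward WT, and the 6 miR-371 cluster members lie at the lower left.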

How the data were processed

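Total RNA was extracted from H1 hESCs with Trizol and made into libraries with a Lexogen small RNA kit. The authors trimmed reads with cutadapt 2.5, mapped them to miRBase with Bowtie2 2.2.9 without seed mismatches, counted with SAMtools 1.3.1 and used DESeq2, as given in the methods and the submitters' processing notes. The deposited values are raw counts of reads per mature miRNA, with 1 table per group that leaves out miRNAs without a count in the first library column. Other groups of the study (12 K562 libraries) served only to count listed miRNAs.

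Groups came from the sample titles. The labels do not say that replicates were separate cultures, so p-values measure the spread between libraries, which may be technical. miRNAs listed in all 5 hESC tables that passed filterByExpr (minimum count 10) were fitted with edgeR 4.0.16 (TMM, quasi-likelihood, 15 libraries, R 4.3.3), with Benjamini-Hochberg adjustment at 0.05 and 95% intervals. DESeq2 1.42.0 was an alternative. Scripts were tested on simulated data. The loci named here carry GRCh38 (hg38) coordinates and GENCODE 44 annotation.

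The members and lists were chosen with earlier results of these data known. The miRNAs named were the 5 of the study and the other arms of their hairpins, the most abundant, the calls, the smallest p-values among those with groups that did not overlap, the leading members of each list and the largest differences between mutant and WT. Sequence depth is given beside the results. Left out were K562 comparisons and 468 miRNAs that entered neither fit.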

Additional observations from a re-analysis of the deposited data

How the results depend on the processing

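The number of miRNAs called between +Dox and -Dox was 0 by edgeR, and 0 with RLE scaling, with library totals, without the filter on low counts (1251 tested) and with a filter at 10 CPM (425 tested). It was 1 by DESeq2, 3 by edgeR on the 6 iUSB1 libraries and 6 by DESeq2 on these 6, an alternative chosen after seeing the data, whose calls were let-7a-5p, miR-1291, miR-3662, miR-371a-3p, miR-371b-3p and miR-372-3p. Leaving out single libraries gave 0 to 4 calls, the 4 without WT library 1 being miR-371a-3p, miR-371b-3p, miR-372-3p and miR-675-5p. With a replicate block 0 were called, 43 had an unadjusted p under 0.05 and the smallest adjusted p was 0.0727. Deviations from the group mean in log2 CPM correlated at -0.02, 0.15 and 0.11 between same-numbered libraries over 420 miRNAs. The numbers were therefore not taken as pairs. The share of intervals within a 2-fold change was 82.6% with the 10 CPM filter, which leaves fewer low miRNAs, against 52.5%.

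Of 716 values of 52 named miRNAs, 694 kept their direction and side of the threshold, 8 newly passed it and 14 changed sign. The sign changes were in 7 miRNAs. miR-148a-3p stood at -0.0040 without the low-count filter. Leaving out single libraries gave ranges of -0.12 to 0.17 for miR-125b-5p, -0.15 to 0.17 for miR-148a-3p, -0.015 to 0.069 for miR-302a-5p, -0.25 to 0.013 for miR-302b-3p, -0.19 to 0.20 for let-7g-5p, -0.26 to 0.15 for miR-135b-5p and -4.52 to 1.45 for miR-202-5p, which rests on 1 -Dox library. The median of the let-7 list ran from -0.52 to 0.11 over the alternatives, that of C19MC from -0.46 to -0.34 and that of the miR-371 cluster from -1.98 to -1.53. The share of mutant calls pointing toward WT, 31.1%, was 38.9% when WT library 1 was left out of those calls too. This alternative was added after seeing the data, as were the other comparisons against WT without that library. Leaving out single iUSB1 libraries gave shares from 21.6% (without +Dox library 1 or -Dox library 3) to 36.5% (without -Dox library 1). The median of the miR-200 list ran from -0.32 to -0.08.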
